A study of Homo sapiens with 16 samples.

Results

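TOP1, TOP2A and TOP2B, the genes of the nuclear DNA topoisomerases I and II, were followed through RNA sequencing of U2OS, a human osteosarcoma cell line. They were taken by symbol, and all 3 were found among the 28207 human gene symbols of the files. Total RNA was sequenced in 16 libraries that fall into 8 groups of 2 replicates. Each group joins a number, zdna1, zdna2, zdna3 or zdna4, with an arm, CL or CC, written as the genotype in the labels. The 8 groups are thus zdna1 CL and zdna1 CC, zdna2 CL and zdna2 CC, zdna3 CL and zdna3 CC, and zdna4 CL and zdna4 CC. What the numbers and the arms stand for is not written in the labels, nor is any treatment or time. Neither arm is therefore treated as the control, and changes between arms are CL over CC. The title of the study names MYC, a transcription factor, FACT, a histone chaperone, and Z-DNA, a DNA conformation that winds to the left. The files of each number also count reads over a contig of that number's own name added to hg19, which are not used here. Nothing says that replicates are separate cultures, so p-values measure the spread between these libraries, which may be technical.

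Topoisomerases cut and reseal DNA to release the twist and the tangles that copying and reading it create. TOP1 nicks a single strand and relaxes the supercoils ahead of and behind RNA polymerase II. TOP2A and TOP2B make a transient double-strand break and pass another duplex through it, which also unlinks sister chromosomes. TOP2A is made mainly in dividing cells, where its level climbs toward mitosis, and is the main target of etoposide and doxorubicin. TOP2B is made in dividing and resting cells alike and is known for a role at the promoters of regulated genes. Underwound DNA, which all 3 enzymes relax, is the form of DNA that favours the Z conformation.

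Reads assigned to human genes numbered 39335 to 310187 per library, with the zdna4 CL libraries deepest (310187 and 225177) and the zdna4 CC libraries shallowest (39335 and 40886). Levels are given in normalised CPM, reads per 1000000 human-gene reads after TMM scaling, and 1 read stood for 3.22 to 25.4 CPM before that scaling. The zdna4 CC libraries stood apart in reads over 402 olfactory receptor genes, whose normal site is the nose. Before TMM scaling these summed to 1449 and 1492 CPM, against 55.3 to 396 CPM in the other 14 libraries. Of 10 osteosarcoma and mesenchymal markers 8 had reads, with sums of 2510 to 4309 CPM, while IBSP and BGLAP, late osteoblast genes, had none. Epithelial, blood and neural markers summed to at most 108, 35.7 and 60.8 CPM.

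In the hg19 coordinates of the files TOP1 lies on chromosome 20 from 39657462 to 39753126 on the plus strand. TOP2A lies on chromosome 17 from 38544777 to 38574148, and TOP2B on chromosome 3 from 25639396 to 25705990, both on the minus strand. Reads were counted over exons, which sum to 3733 bases in TOP1, 5695 in TOP2A and 5485 in TOP2B. Counting used no strand. TOP1 exons share 204 bases with the antisense gene PLCG1-AS1, which had 6 reads in all libraries together, and TOP2B exons share 540 bases with RARB on the other strand, which had 4 reads. TOP2A exons overlap no other gene of the files.

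The promoter windows of the 3 genes are shown because they differ in the short elements that mark promoters of G2 and mitosis genes, a group set beside TOP2A below. Such promoters often carry several CCAAT boxes, the binding site of NF-Y, and a CHR element, which resembles TTTGAA and is bound by the MuvB complexes that time these genes. The sequences are from RefSeq on GRCh38.p14, run 5′ to 3′ from 250 bases before to 50 bases after the annotated start, and all 3 genes had an entry, TOP2B with 2 starts. Capitals mark CCAAT or its reverse complement ATTGG and TTTGAA or its reverse complement TTCAAA, which were searched on both strands and do not overlap one another here.
TOP2A, chr17:40417847-40418146, minus strand: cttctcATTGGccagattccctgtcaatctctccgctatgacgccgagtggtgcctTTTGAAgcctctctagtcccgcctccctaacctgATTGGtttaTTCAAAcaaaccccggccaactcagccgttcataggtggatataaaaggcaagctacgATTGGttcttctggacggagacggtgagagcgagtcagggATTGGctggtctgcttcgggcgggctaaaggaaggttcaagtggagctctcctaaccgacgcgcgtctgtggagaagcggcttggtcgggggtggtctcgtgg
TOP2B, downstream start, chr3:25664323-25664622, minus strand: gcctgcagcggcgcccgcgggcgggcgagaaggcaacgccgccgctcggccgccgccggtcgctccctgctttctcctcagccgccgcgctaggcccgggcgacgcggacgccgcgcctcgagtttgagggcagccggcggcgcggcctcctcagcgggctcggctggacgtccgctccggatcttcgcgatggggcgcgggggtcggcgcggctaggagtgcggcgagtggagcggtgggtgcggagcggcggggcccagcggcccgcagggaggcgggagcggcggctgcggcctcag
TOP2B, upstream start, chr3:25664858-25665157, minus strand: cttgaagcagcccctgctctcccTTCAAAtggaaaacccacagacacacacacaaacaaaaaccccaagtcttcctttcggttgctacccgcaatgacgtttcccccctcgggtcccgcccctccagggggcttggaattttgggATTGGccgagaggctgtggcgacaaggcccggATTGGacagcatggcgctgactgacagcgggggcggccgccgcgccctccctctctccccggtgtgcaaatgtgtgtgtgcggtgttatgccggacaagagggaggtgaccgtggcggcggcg
TOP1, chr20:41028572-41028871, plus strand: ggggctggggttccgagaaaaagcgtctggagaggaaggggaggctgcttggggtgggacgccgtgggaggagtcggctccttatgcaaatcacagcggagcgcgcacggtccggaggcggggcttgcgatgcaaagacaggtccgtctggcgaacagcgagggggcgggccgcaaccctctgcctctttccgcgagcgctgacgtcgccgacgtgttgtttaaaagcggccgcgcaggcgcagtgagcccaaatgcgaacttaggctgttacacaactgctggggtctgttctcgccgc

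The TOP2A window holds 4 CCAAT boxes, all in the reverse orientation, at -244, -160, -93 and -53 from the start, and 2 matches to TTTGAA. The upstream TOP2B window holds 2 CCAAT boxes, at -105 and -73, and 1 TTCAAA. Neither element is in the TOP1 window or in the downstream TOP2B window, whose GC content is 80%. Of 35116 RefSeq promoter windows of the same length, 34.6% hold at least 1 CCAAT box, 10.8% at least 2, 0.991% at least 4 and 15.2% a TTTGAA match. Among the 26 G2 and mitosis genes of a list of 30 that had a window, 14 hold at least 2 CCAAT boxes, 4 hold at least 4, and 21 hold a TTTGAA match. The E-box CACGTG, the core site of MYC, is in none of the 4 windows shown and in 7.26% of all windows. Runs of alternating purine and pyrimidine, the sequence type that most readily takes up the Z form, reach 13 bases in the upstream TOP2B window, 5 in the downstream one, 9 in TOP1 and 8 in TOP2A, and 8.02% of all windows hold a run of at least 12. A match is a description of letters and not of binding.

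TOP2A was on average the most abundant of the 3 transcripts. It averaged 505 ± 172 CPM over the 16 libraries (mean ± SD), against 207 ± 62.8 CPM for TOP1 and 205 ± 65.3 CPM for TOP2B. Per kilobase of exon the levels were 88.6 ± 30.2 RPKM for TOP2A, 55.5 ± 16.8 RPKM for TOP1 and 37.5 ± 11.9 RPKM for TOP2B. TOP1 exceeded TOP2A in zdna1 CC replicate 1 (90.3 against 66.9 RPKM) and zdna2 CL replicate 1 (76.7 against 67.4 RPKM). In zdna3 CL replicate 2 TOP1 at 61.9 and TOP2B at 59.9 RPKM both exceeded TOP2A at 49.1 RPKM. TOP2A was the highest per kilobase in every other library. Ranked by RPKM among 4632 tested genes, TOP2A stood at 536, TOP1 at 959 and TOP2B at 1466. The values rest on 1160 reads of TOP2A, 413 of TOP1 and 392 of TOP2B in all.

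**Figure D1:**
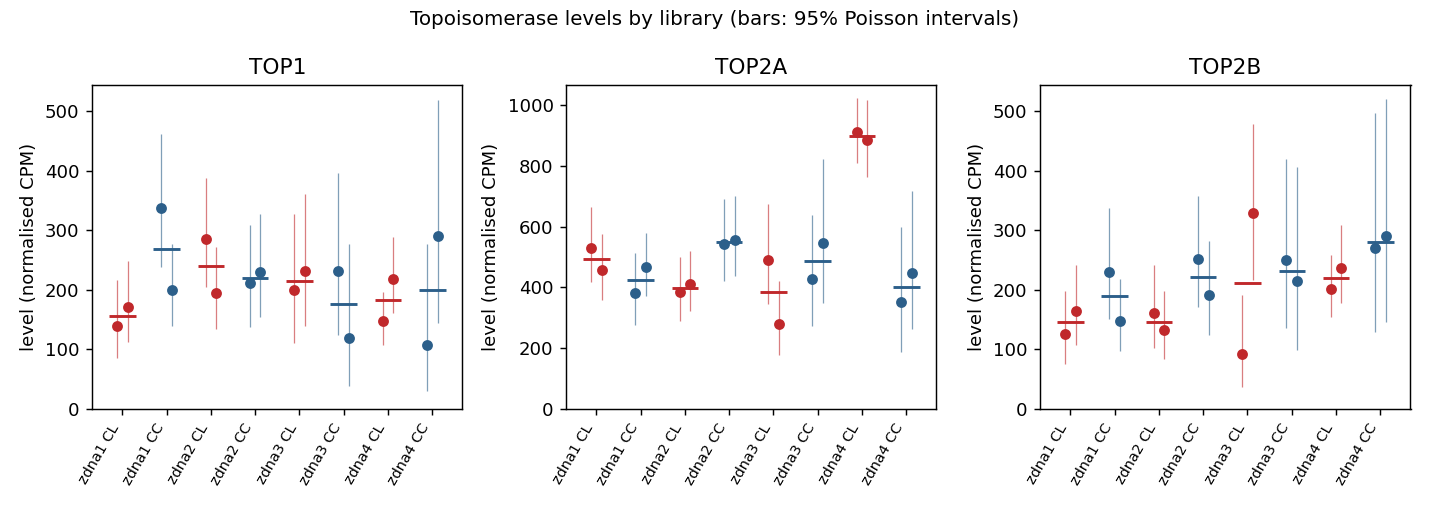
Normalised CPM of TOP1, TOP2A and TOP2B in each of the 16 libraries, with CL in red and CC in blue; short lines are group means (n = 2) and vertical bars 95% Poisson intervals of the reads, which cover counting error only. Both zdna4 CL libraries lie apart in TOP2A, at 912 and 884 CPM, and no other library exceeds 558, while TOP1 runs from 108 to 337 CPM and TOP2B from 92.8 to 328 CPM with wide intervals in zdna3 CC and zdna4 CC.

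TOP2A stood highest in zdna4 CL. It had 912 and 884 CPM in the zdna4 CL libraries, from 285 and 198 reads. In zdna4 CC it had 351 and 449 CPM, from 13 and 17 reads. Both zdna4 CL libraries lie above every other library, as the remaining 14 ran from 280 to 558 CPM with a median of 453. This is a description only, since genes that separate zdna4 CL in this way were not counted.

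By limma with Benjamini-Hochberg adjustment over 4632 genes, TOP2A rose in zdna4 CL over zdna4 CC by 1.16 on the log2(CPM + 10) scale (SE 0.279, 95% interval 0.60 to 1.72, adjusted p = 0.0258, n = 2 and 2). It ranked 20 by p among the tested genes, of which 1.17% were called in that comparison. From summed reads, 483 in CL and 30 in CC, the ratio of levels was 2.25, with a 95% interval of 1.55 to 3.37 for counting error only. The call was lost without either zdna4 CL replicate (adjusted p = 0.182 and 0.161) and with a pseudocount of 2 CPM (adjusted p = 0.0591), while the log2 change was 1.15, 1.20 and 1.17 in those fits. edgeR's quasi-likelihood test on the recovered reads gave 1.17 (adjusted p = 8.30e-04) and DESeq2 1.15 (adjusted p = 0.0243). On simulated data the share of false calls in this comparison was well above the threshold by limma and slightly above it by edgeR, so calls made here are less firm than their adjusted p. At the density of reads over olfactory receptor exons, the TOP2A exons of the zdna4 CC libraries would hold 0.735 and 0.787 reads, against the 13 and 17 counted. These figures concern reads over TOP2A alone, and the effect of such reads on the library total was not tested. Without a filter on low genes the change was 1.63 (limma adjusted p = 0.0378), where the median of the genes of the main fit was 0.52. In bulk RNA, more cells that make a transcript and more transcript per cell cannot be told apart.

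In the other numbers TOP2A was not called between arms. In zdna2 TOP2A had 384 and 412 CPM in CL, against 544 and 558 CPM in CC. The 2 groups do not overlap, but the change of -0.46 (SE 0.175, 95% interval -0.81 to -0.11, unadjusted p = 0.0112) did not pass the test (limma, adjusted p = 0.560), where 0.173% of genes did. How many of all genes separate in this way was not counted, so non-overlap here is a description only. Libraries of zdna3 CL held 491 and 280 CPM, against 428 and 548 CPM in zdna3 CC, a change of -0.38 (SE 0.280, limma adjusted p = 0.932; 0.42 on the scale of the deposited values, where the median of all genes was 0.72) where 0.0864% of genes were called. Those of zdna1 CL held 531 and 456 CPM, against 381 and 468 CPM in zdna1 CC, a change of 0.22 (SE 0.173, limma adjusted p = 0.712) where 0.756% were called. Both pairs of groups overlap.

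The 4 differences between arms were not equal for TOP2A (limma F test on the interaction, F = 9.13, adjusted p = 0.00901), which ranked 25 among the tested genes, with 0.864% called. By limma this call was lost without zdna2 CL replicate 1 (adjusted p = 0.0553) and without a filter on low genes (adjusted p = 0.315), and over zdna1 to zdna3 alone it was not made (adjusted p = 0.554). Averaged over the numbers the change was 0.13 (SE 0.116, limma adjusted p = 0.779, with 0.432% of genes called), and over zdna1 to zdna3 it was -0.21.

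**Figure D2:**
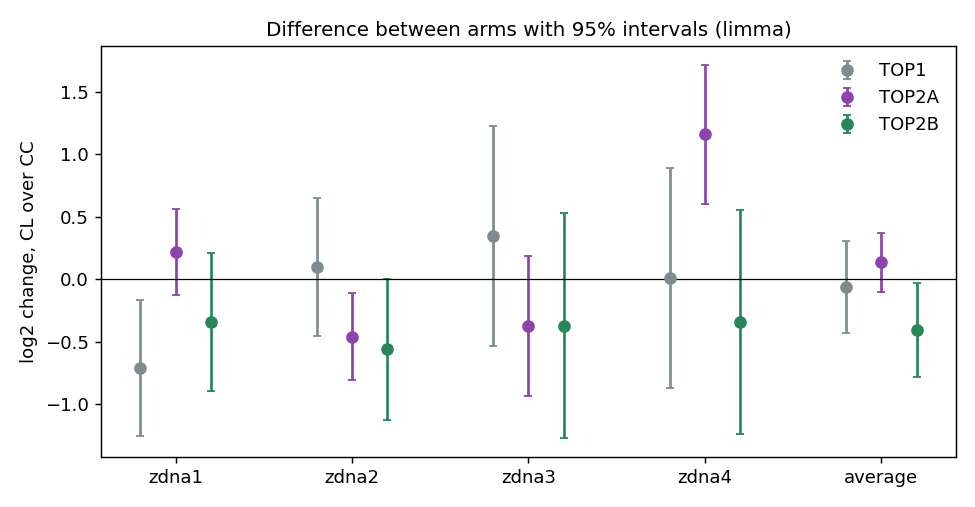
Log2 change of CL over CC for TOP1, TOP2A and TOP2B in zdna1 to zdna4 and averaged over them; points are limma estimates and bars 95% intervals. TOP2A in zdna4 lies at 1.16, above the other TOP2A values of 0.22, -0.46 and -0.38, and the 4 TOP2B values lie between -0.56 and -0.34.

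Within the CL libraries, a comparison that does not use zdna4 CC and was added after the values were seen, TOP2A rose in zdna4 over each other number. The log2 change was 0.85 over zdna1 (SE 0.149, adjusted p = 1.25e-04), 1.15 over zdna2 (SE 0.146, adjusted p = 2.57e-08) and 1.25 over zdna3 (SE 0.192, adjusted p = 3.52e-06) by limma. In these comparisons 2.20%, 10.6% and 6.71% of genes were called. The zdna4 CL libraries are shared by all 3. Fitted on the 8 CL libraries alone the changes were 0.84, 1.14 and 1.27 (limma, adjusted p = 0.00105, 2.36e-06 and 3.21e-05). By limma the change over zdna1 was no longer called without array weights (adjusted p = 0.236) or without zdna1 CL replicate 2 (adjusted p = 0.0786), zdna4 CL replicate 1 (adjusted p = 0.203) or zdna4 CL replicate 2 (adjusted p = 0.121).

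Within the CC libraries the same changes were -0.09 over zdna1 (95% interval -0.67 to 0.50), -0.46 over zdna2 (-1.05 to 0.13) and -0.28 over zdna3 (-0.97 to 0.41), none of them called by limma (adjusted p = 0.984, 0.716 and 0.837), where 0.302%, 0.259% and 0.842% of genes were. The zdna4 CL libraries are the deepest and the zdna4 CC libraries the shallowest, so depth moves with this result; its part was not tested.

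**Figure D3:**
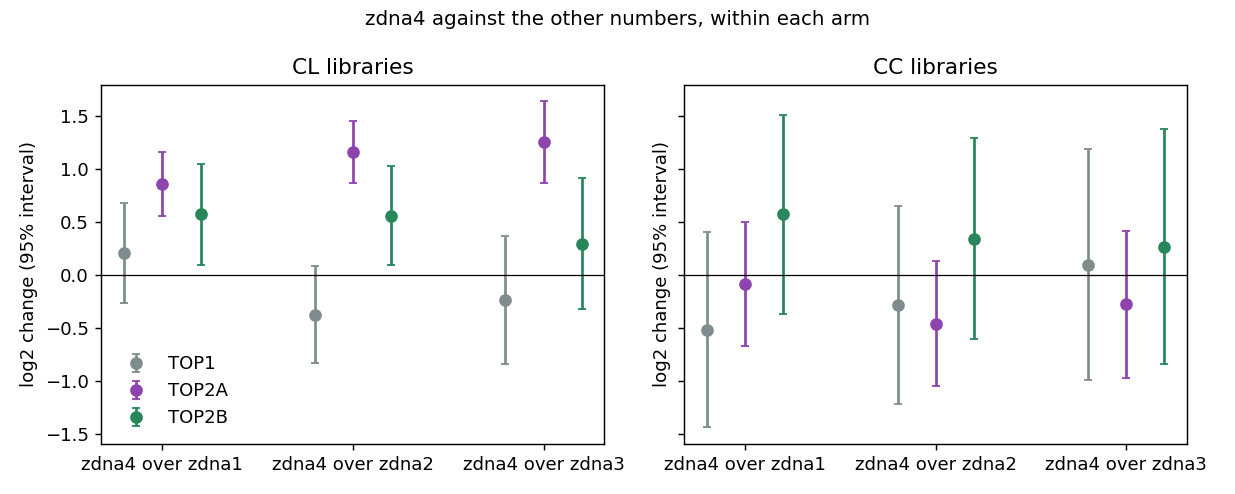
Log2 change of zdna4 over zdna1, zdna2 and zdna3 for the 3 genes within the CL libraries (left) and within the CC libraries (right); points are limma estimates and bars 95% intervals. TOP2A lies at 0.85, 1.15 and 1.25 within CL and at -0.09, -0.46 and -0.28 within CC.

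TOP2A also varied more over the libraries than most genes of its level. Its coefficient of variation in CPM was 34.0%, and 9 of 156 genes of similar level had a higher one, with a median of 19.3%. Over the 14 libraries other than zdna4 CL it was 18.4%. TOP1 at 30.3% and TOP2B at 31.8% were exceeded by 181 of 573 and 150 of 576 genes of their level. These are descriptions, since zdna4 CL is part of the values.

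TOP1 passed no test in the main fits. On the scale of the deposited values it passed in CL over CC of zdna3 (1.04, limma adjusted p = 0.0339). It also passed there in zdna3 over zdna1 (-1.60) and zdna3 over zdna2 (-1.67), averaged over the arms. The medians of all genes on that scale were 0.72, -1.48 and -1.36 in these comparisons. The group means of TOP1 lay between 155 CPM in zdna1 CL and 268 CPM in zdna1 CC. Each group overlapped the next in the order zdna1 CL, zdna3 CC, zdna4 CL, zdna4 CC, zdna3 CL, zdna2 CC, zdna2 CL and zdna1 CC. In the main fits limma and edgeR called TOP1 in none of 17 comparisons. DESeq2 called it in none either, but gave it no adjusted p in some of them. By limma 1 of the 17 had an unadjusted p under 0.05.

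That comparison was CL over CC in zdna1, where DESeq2 gave TOP1 no adjusted p. There TOP1 had 140 and 171 CPM in CL, against 337 and 200 CPM in CC. The groups do not overlap, which is a description only, as it was not counted over all genes. The change was -0.71 (SE 0.272, 95% interval -1.26 to -0.17, unadjusted p = 0.0114, limma adjusted p = 0.275). The ratio of levels from 47 reads in CL and 73 in CC was 0.616 (95% interval 0.418 to 0.901, counting error only). In zdna2 TOP1 had 286 and 195 CPM in CL, against 211 and 229 CPM in CC. In zdna3 it had 199 and 231 CPM in CL, against 232 and 119 CPM in CC. In zdna4 it had 147 and 219 CPM in CL, against 108 and 291 CPM in CC, where the CC values rest on 4 and 11 reads. All 3 pairs of groups overlap, with changes of 0.10, 0.35 and 0.01 and 95% intervals of -0.45 to 0.65, -0.54 to 1.23 and -0.87 to 0.89.

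TOP2B lay lower in CL than in CC on average in all 4 numbers, with no test passed, except that on the scale of the deposited values the zdna3 and zdna4 changes were 0.40 and 0.02, against medians of all genes of 0.72 and 0.43, and that without a filter on low genes the zdna4 change was 0.12. The zdna3 change also turned to 0.49 without zdna3 CL replicate 1, and was -1.23 without zdna3 CL replicate 2. The changes were -0.34 in zdna1 (95% interval -0.90 to 0.21), -0.56 in zdna2 (-1.12 to 0.002), -0.37 in zdna3 (-1.27 to 0.53) and -0.34 in zdna4 (-1.24 to 0.55). Averaged over the numbers the change was -0.40 (SE 0.187, 95% interval -0.78 to -0.03, unadjusted p = 0.0344, limma adjusted p = 0.491). An exact two-sided permutation test that swaps arms within each number gave p = 0.0664 for it, or 0.398 adjusted over the 6 quantities tested this way, with a smallest possible p of 0.00154 over 1296 relabelings. The 4 differences were not called unequal by the limma F test (F = 0.124, adjusted p = 0.987). In the main fits TOP2B was called in 0 of 17 comparisons by limma, 0 by edgeR and 0 by DESeq2, and 4 had an unadjusted p under 0.05 by limma. DESeq2 gave TOP2B no adjusted p in some of them, CL over CC in zdna1 and the average of CL over CC included.

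Single libraries show how far apart TOP2B replicates could be. In zdna3 CL it had 92.8 and 328 CPM, from 7 and 27 reads, the lowest and the highest of the 16 libraries. In zdna3 CC it had 250 and 214 CPM, between the CL values. In zdna2 it had 161 and 132 CPM in CL, against 251 and 191 CPM in CC, without overlap. In zdna4 it had 202 and 237 CPM in CL, against 270 and 291 CPM in CC, without overlap but with only 10 and 11 reads in the CC libraries. In zdna1 it had 126 and 165 CPM in CL, against 231 and 148 CPM in CC. By group mean zdna1 CL was lowest at 145 CPM, and each group overlapped the next up to zdna3 CC at 232 CPM. The highest group, zdna4 CC at 280 CPM, lay above zdna3 CC without overlap. Non-overlap of groups of 2 libraries was not counted over all genes and is a description only.

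The share of TOP2A among the reads of both type II enzymes does not depend on how a library is scaled. Over all libraries TOP2A held 74.7% of 1160 TOP2A and 392 TOP2B reads (Wilson 95% interval 72.5% to 76.8%). In zdna4 CL it held 80.6% (77.3% to 83.6%), against 58.8% (45.2% to 71.2%) in zdna4 CC. These intervals do not overlap and cover counting error only. In zdna1 the share was 77.1% in CL (70.6% to 82.5%) and 70.6% in CC (63.5% to 76.8%), in zdna2 73.4% in CL (66.4% to 79.4%) and 71.4% in CC (64.7% to 77.3%), and in zdna3 63.8% in CL (53.8% to 72.8%) and 67.1% in CC (55.5% to 77.0%). The zdna3 CL share, taken from summed reads, covers libraries at 84.1% and 46.0%, which are the highest and the lowest of the 16.

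**Figure D4:**
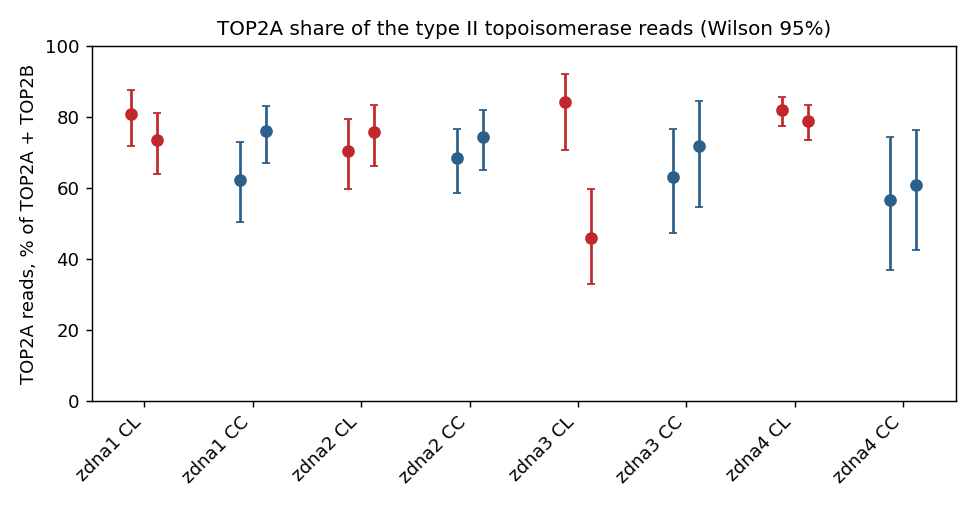
Share of TOP2A in the summed TOP2A and TOP2B reads of each library, in percent, with CL in red, CC in blue and Wilson 95% intervals, which cover counting error only. The zdna4 CL libraries lie at 81.9% and 78.9%, the zdna4 CC libraries at 56.5% and 60.7%, and the zdna3 CL replicates at 84.1% and 46.0%.

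The log2 ratio of TOP2A to TOP2B reads, averaged over the 2 replicates, was higher in CL than in CC in 4 of 4 numbers, by 0.57, 0.12, 0.02 and 1.55 in zdna1 to zdna4. The direction in zdna3 is not firm, with 2.32 and -0.23 in CL against 0.76 and 1.31 in CC. By summed reads it went the other way, with a TOP2A share of 63.8% in zdna3 CL and 67.1% in zdna3 CC. The average of 0.56 gave an exact two-sided permutation p of 0.144, or 0.431 adjusted over the 6 quantities. The ratio of TOP2A to TOP1 differed by 0.22 on average (exact permutation p = 0.548) and was higher in CL in 2 of 4 numbers. The ratio of TOP2B to TOP1 differed by -0.34 (exact permutation p = 0.245) and was higher in CL in 1 of 4.

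Averaged over both arms, limma, edgeR and DESeq2 called 0 of the 3 genes in any pair of numbers, with 3 changes of TOP2A and 1 of TOP2B at an unadjusted p under 0.05. In zdna2 over zdna1 and in zdna4 over zdna1, DESeq2 gave TOP1 and TOP2B no adjusted p. TOP2A was higher in zdna4 than in zdna1 by 0.38 (SE 0.164, limma adjusted p = 0.412, 0.691% of genes called), than in zdna2 by 0.35 (SE 0.165, adjusted p = 0.300, 2.48% called) and than in zdna3 by 0.49 (SE 0.198, adjusted p = 0.161, 4.75% called). TOP2B was higher in zdna4 than in zdna1 by 0.57 (SE 0.263, limma adjusted p = 0.470). In zdna2 over zdna1, zdna3 over zdna1 and zdna3 over zdna2, 2.50%, 4.49% and 6.0% of genes were called. The other TOP2A and TOP2B changes ran from -0.14 to 0.45 and those of TOP1 from -0.33 to 0.18. On the scale of the deposited values the median of all genes itself shifted, by -1.48 in zdna3 over zdna1, -1.36 in zdna3 over zdna2 and 1.38 in zdna4 over zdna3, and relative to those medians TOP2A stood at -0.23, -0.27 and 0.67.

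The G2 and mitosis genes, a list of 30 with TOP2A not among them, stood high in the same libraries. Their levels summed to 8364 and 8252 CPM in the zdna4 CL libraries, against 5694 and 6524 CPM in zdna4 CC and 4380 to 5754 CPM in the other 12. Within the CL libraries 8 of 27 tested members rose in zdna4 over zdna1 and 0 fell, with a median of 0.62 on the log2 scale against 0.01 over all genes, where 0.972% of genes were called higher and 1.23% lower. Over zdna2, 19 rose and 0 fell, with a median of 0.93 against 0.00 and 6.37% called higher and 4.23% lower. Over zdna3, 3 rose and 0 fell, with a median of 0.73 against 0.01 and 3.37% called higher and 3.35% lower. In each of the 3 comparisons 27 of 27 changes were positive.

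The counts moved with the processing. Without either zdna4 CL library the members called fell to 0 over zdna1, to 3 or 4 over zdna2 and to 2 or 1 over zdna3, and without array weights they were 0, 2 and 2. Leaving out a library of the other group gave 4 and 2 over zdna1, 7 and 8 over zdna2 and 8 and 5 over zdna3, for replicates 1 and 2 in turn. DESeq2 called 2, 5 and 2 and edgeR 9, 20 and 4. The median stayed between 0.57 and 1.02 over these fits. Without a filter on low genes 3, 5 and 2 of 30 were called. On the scale of the deposited values 8, 24 and 27 of 27 were called, with medians of 0.69, 1.17 and 1.99.

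MKI67, the proliferation antigen Ki-67 that coats mitotic chromosomes, had 1511 and 1478 CPM in the zdna4 CL libraries, against 1187 and 1189 CPM in zdna4 CC and 727 to 1277 CPM in the other 12. It rose in zdna4 CL by 0.57 over zdna1 CL (SE 0.105, limma adjusted p = 2.70e-04) and by 0.96 over zdna2 CL (SE 0.103, limma adjusted p = 3.80e-10). Limma did not call it over zdna3 CL, which had 1220 and 1277 CPM. CENPF, a kinetochore protein, had 839 and 844 CPM in zdna4 CL, against 648 and 687 CPM in zdna4 CC. It rose by 0.69, 0.99 and 0.93 over zdna1, zdna2 and zdna3 within CL (limma adjusted p = 7.91e-04, 1.09e-07 and 1.32e-04). ASPM, a spindle pole protein, rose by 1.06, 0.93 and 1.70 in the same comparisons (limma adjusted p = 0.0169, 0.0128 and 4.64e-04). CENPE, a kinetochore motor, BUB1B, a checkpoint kinase, TPX2, a spindle assembly factor, and KIF20A, a motor of cytokinesis, rose over both zdna1 and zdna2, by 0.48 to 1.67. CKAP2L, a spindle protein, rose over zdna3 by 1.39 (limma adjusted p = 0.0409) and ANLN, a scaffold of cytokinesis, rose over zdna1 by 0.70 (limma adjusted p = 0.00205). Members called over zdna2 alone included the cyclins CCNA2, CCNB1 and CCNB2 at 1.12, 0.80 and 1.63, and PLK1, a mitotic kinase, at 1.30.

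Between the arms of zdna4 CKAP2L was the 1 of 27 members called by limma (2.34, SE 0.636, adjusted p = 0.0495), where 0.907% of genes were called higher, and edgeR and DESeq2 called 0. Limma also called 0 with a pseudocount of 2 CPM, without a filter on low genes, and without any 1 of the CL libraries of zdna2, zdna3 and zdna4. CKAP2L had 182 and 179 CPM in zdna4 CL, against 0 and 132 CPM in zdna4 CC, so the change rests on 1 library with 0 reads. The median of the list was 0.35 against 0.08 over all genes, and 8 members had an unadjusted p under 0.05, all higher in CL. In zdna1, zdna2 and zdna3 limma, edgeR and DESeq2 each called 0 of 27, with 5, 2 and 3 at an unadjusted p under 0.05. By limma 0.756%, 0.173% and 0.0864% of all genes were called there. CCNB1, the cyclin that drives entry into mitosis, was the 1 member of the list whose 4 differences between arms were called unequal (limma F test, adjusted p = 0.0267), at 0.76, -0.51, -0.97 and 1.50 in zdna1 to zdna4. By that F test 0.864% of all genes were called. Within the CC libraries limma, edgeR and DESeq2 called 0 members of the list in zdna4 over zdna1, zdna2 or zdna3, with 3, 4 and 3 at an unadjusted p under 0.05 and medians of 0.33, 0.13 and 0.28. Limma called 0.302%, 0.259% and 0.842% of all genes in these comparisons.

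**Figure D5:**
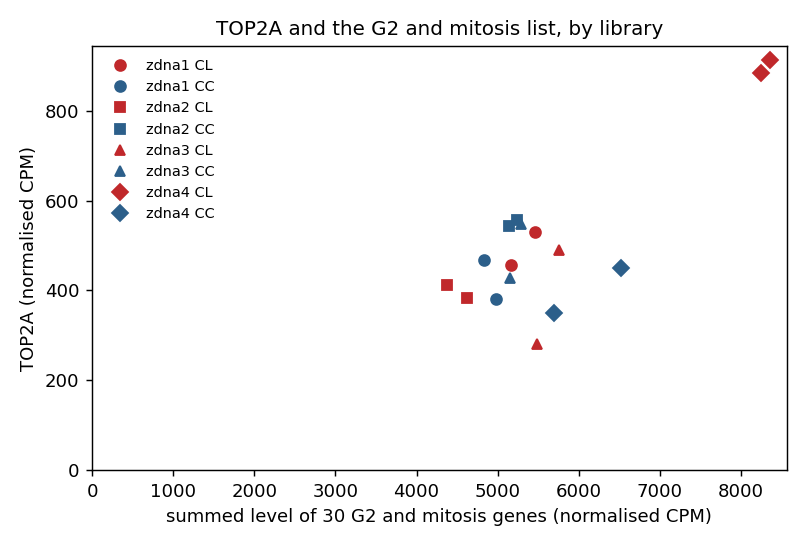
TOP2A in normalised CPM against the summed normalised CPM of 30 G2 and mitosis genes in each library; colour gives the arm (CL red, CC blue) and shape the number. The zdna4 CL libraries lie apart at the upper right, at sums of 8364 and 8252 CPM, and the next highest sum, 6524 CPM, belongs to a zdna4 CC library, where TOP2A is at 449 CPM.

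Genes of chromosome condensation and separation were tested in 2 lists. Among condensin and cohesin genes, NCAPD2, a condensin I subunit, rose in zdna4 CL over zdna2 CL by 1.07 (SE 0.166, limma adjusted p = 3.14e-06), as 1 of 16 tested members, where 6.37% of all genes were called higher. Over zdna3 CL, where 3.37% of genes were called higher, 3 of 16 rose, the condensin subunits NCAPG and NCAPG2 by 1.52 and 1.32 and the cohesin subunit STAG2 by 1.32 (limma adjusted p = 0.0468, 0.0306 and 0.0360), of which edgeR and DESeq2 called 0. Over zdna1 CL limma, edgeR and DESeq2 called 0 of 16, with 1 at an unadjusted p under 0.05 and 0.972% of genes called higher. The median log2 change of the 16 was 0.30, 0.15 and 0.50 over zdna1, zdna2 and zdna3, against 0.01, -0.003 and 0.01 over all genes. In the list for decatenation and sister separation, 3 of 7 rose over zdna2 CL, beside the same 6.37% of all genes: INCENP, which anchors Aurora B, by 1.33, PTTG1, the securin that restrains separase, by 0.97, and ESPL1, separase itself, by 1.42 (limma adjusted p = 2.01e-04, 0.0258 and 0.00240). DESeq2 called 1 of these 7 and edgeR 4. Over zdna1 CL and zdna3 CL limma called 0 of 7, with 4 and 1 at an unadjusted p under 0.05, while edgeR called 1 and 0 and DESeq2 0 and 0. The medians of the 7 were 0.64, 0.83 and 0.45 over zdna1, zdna2 and zdna3.

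The other topoisomerases gave no call. TOP3A, a type IA enzyme that works with BLM on crossed strands, averaged 102 CPM, and TOP1MT, the mitochondrial type IB enzyme, 84.5 CPM. They were the 2 of 5 listed genes that were tested, and limma, edgeR and DESeq2 called 0 of 2 in each of 17 comparisons, with 2 of those tests at an unadjusted p under 0.05. Limma called 0.0864% to 10.6% of all genes in those comparisons. TOP3B averaged 41.2 CPM and C11orf80, a partner of SPO11 in mice, 13.9 CPM, both under the filter of 50 CPM. SPO11, the meiotic relative, had 1 read in all.

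Of the genes that clear trapped topoisomerases from DNA, 8 of 15 were tested and none was called between arms. By limma 0.756%, 0.173%, 0.0864% and 1.17% of all genes were called between arms in zdna1 to zdna4. ZNF451, a SUMO ligase that helps TDP2 resolve trapped TOP2, fell in zdna4 CL relative to zdna2 CL by 0.82 (SE 0.208, limma adjusted p = 0.00471), where 4.23% of genes were called lower. edgeR called it too and DESeq2 did not. PRKDC, the catalytic subunit of DNA-PK in end joining, fell in zdna3 relative to zdna1 by 0.55 and relative to zdna2 by 0.56, both averaged over the arms (limma adjusted p = 0.00152 and 0.00135), where 2.27% and 3.20% of genes were called lower. Among all 8, limma, edgeR and DESeq2 called 0 between arms in each number, and 1 had an unadjusted p under 0.05, in zdna2.

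Of 13 partners of TOP1 and RNA polymerase II, 11 were tested, and limma, edgeR and DESeq2 called 0 between arms in each number, with 3, 3, 0 and 2 at an unadjusted p under 0.05 in zdna1 to zdna4. Limma called 0.756%, 0.173%, 0.0864% and 1.17% of all genes in these comparisons. NCL, the nucleolar protein nucleolin, which binds TOP1, fell in zdna4 CL by 0.56 relative to zdna2 CL and by 0.58 relative to zdna3 CL (limma adjusted p = 5.23e-06 and 4.31e-04). POLR2A, the large subunit of RNA polymerase II, and SUPT6H, an elongation factor, fell relative to zdna2 CL by 0.64 and 0.52 (limma adjusted p = 0.0138 and 0.0100). Relative to zdna2 CL, where 4.23% of all genes were called lower, limma and edgeR thus called 3 of the 11 lower and DESeq2 called 1. SUPT5H, a subunit of the elongation factor DSIF, fell relative to zdna3 CL by 0.87 (limma adjusted p = 0.0151), where 3.35% of genes were called lower. Over zdna1 CL all 3 tools called 0 of the 11, where limma called 2.20% of all genes in either direction. Medians of the 11 were 0.16, -0.12 and -0.01 over zdna1, zdna2 and zdna3 within CL. Within CC limma called 0, with 1, 2 and 2 lower at an unadjusted p under 0.05. There 0.302%, 0.259% and 0.842% of all genes were called in zdna4 over zdna1, zdna2 and zdna3. Averaged over the arms, limma called 1 lower in zdna4 over zdna2 and 1 over zdna3, where 2.48% and 4.75% of genes were called in either direction. It also called 1 higher in zdna2 over zdna1 and 1 in zdna3 over zdna1, where 2.50% and 4.49% were called in either direction. In zdna4 over zdna1 it called 0 of the 11, where 0.691% of genes were called. TOP1 itself changed by -0.38 relative to zdna2 CL and -0.24 relative to zdna3 CL, with no call (limma adjusted p = 0.323 and 0.726).

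The 3 members showed little common movement over the 16 libraries, with Pearson correlations of log2(CPM + 10) of -0.23 for TOP1 and TOP2A, 0.15 for TOP1 and TOP2B, and -0.15 for TOP2A and TOP2B. Among 921 genes of at least 200 CPM, those most like TOP2A were NUCKS1 at 0.81, PRR11 at 0.79, PALLD at 0.77, RHOBTB3 at 0.77 and TUBB at 0.68. Leaving out the 2 zdna4 CL libraries lowered these to 0.38 to 0.56. Nearest to TOP1 were AFF4 at 0.81, PSME3 at 0.79, RCN1 at 0.75, MARS1 at 0.73 and GOLGB1 at 0.73, and without the 2 libraries farthest from its median they were 0.41 to 0.70. Nearest to TOP2B were ERBIN at 0.71, TGFB2 at 0.66, CALU at 0.63, VEZF1 at 0.61 and SEPTIN7 at 0.61, and 0.34 to 0.60 in the same way. The correlations share libraries, and so depth, and are given as descriptions.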

How the data were processed

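Total RNA of U2OS cells was sequenced in 16 libraries, and each deposited file gives 1 value per gene, which is a scaled signal and not a count. Per the submitters' processing notes, Trim Galore 0.6.6, STAR and bedtools 2.29.2 were used with the builds hg19 and dm6. Per the file headers, featureCounts 2.0.1 counted read pairs over exons of hg19 plus 1 added contig, without strand, and the constant that scales each library is not given in the sources used here.

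From 99.989% to 100% of the values above 0 in a library were whole multiples of 1 step to within 0.1 reads, and dividing by that step recovered the reads. Levels are CPM over human genes with TMM factors (edgeR 4.0.16). Genes under a mean of 50 CPM were left out, and the other 4632 were fitted as log2(CPM + 10) by limma 3.58.1 in R 4.3.3, with 8 group means over all 16 libraries, array weights per group and a mean-variance trend. A gene is called at a Benjamini-Hochberg adjusted p under 0.05 over all genes tested. Fold changes on this scale understate those of low genes. The scripts were tested on simulated data in 3 comparisons. The share of false calls was under the threshold in CL over CC of zdna1 and in zdna4 over zdna1 within CL, by limma and by edgeR. In CL over CC of zdna4 it was well above the threshold by limma and slightly above it by edgeR.

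Exact permutation tests swapped arms within each number (scipy 1.17.1). edgeR's quasi-likelihood test and DESeq2 1.42.0 on the recovered reads, the deposited scale, library totals, other pseudocounts and filters, no array weights, a replicate block and leaving out each library were the alternatives. A gene to which DESeq2 gave no adjusted p counts as not called by it. Members and gene lists were chosen with earlier results of these data known. The text names the 3 members, the list members called in a comparison that is counted, otherwise members of high level, and the 5 genes most correlated with each member. It names some called members by example, and the comparisons within CL and within CC of zdna4 with other numbers were added after the values were seen. Poisson and Wilson intervals cover counting error only, since PCR copies are not independent molecules. Promoter windows are RefSeq entries on GRCh38.p14, a different build from the files, so no coordinates were carried across.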

Additional observations from a re-analysis of the deposited data

Results flagged for a closer look

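The change of TOP2A between the arms differed between the 4 numbers. It was 0.22 in zdna1, -0.46 in zdna2, -0.38 in zdna3 and 1.16 in zdna4 on the log2(CPM + 10) scale (limma F test of the interaction, adjusted p = 0.00901 over 4632 genes). Both zdna4 CL libraries lay above both zdna4 CC libraries, both zdna2 CL libraries lay below both zdna2 CC libraries, and zdna1 and zdna3 overlapped. How many of all genes separate in this way was not counted. Where 0.864% of genes were called by that test, TOP1 and TOP2B were not.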

How the results depend on the processing

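Members, lists and the main settings are those given above; the comparisons of zdna4 with the other numbers within CL, and their alternatives, were added after the data were seen. Over 51 results of the members and their ratios, with 1219 values under an alternative, 1125 kept the direction and the side of the threshold. Of 62 whose sign turned, 4 were called in either fit. Many of the 1219 values come from fits without a library outside the comparison, and most results were not called. The count that kept is therefore no measure of how firm a call is. Numbers of genes called are not among these values and are given below. Log2 changes, or for the ratios log2 differences, follow in parentheses. On the scale of the deposited values the sign turned for TOP2A in CL over CC of zdna3 (0.42), TOP2B in CL over CC of zdna3 (0.40), TOP2B in CL over CC of zdna4 (0.0198), TOP1 in the average of CL over CC (0.24), TOP2A in zdna2 over zdna1 over both arms (-0.0754), TOP2B in zdna3 over zdna1 over both arms (-1.24), TOP2B in zdna3 over zdna2 over both arms (-1.26), TOP1 in zdna4 over zdna3 over both arms (1.40) and TOP1 in zdna4 over zdna3 in CL (1.07), and the test was newly passed by TOP1 in CL over CC of zdna3 (1.04), TOP2A in the average of CL over CC (0.48), TOP1 in zdna3 over zdna1 over both arms (-1.60), TOP2A in zdna3 over zdna1 over both arms (-1.71), TOP1 in zdna3 over zdna2 over both arms (-1.67), TOP2A in zdna3 over zdna2 over both arms (-1.63), TOP2A in zdna4 over zdna3 over both arms (2.05), TOP2B in zdna4 over zdna3 over both arms (1.78), TOP2B in zdna4 over zdna2 in CL (0.79) and TOP2B in zdna4 over zdna3 in CL (1.59). Without a filter on low genes the sign turned for TOP2B in CL over CC of zdna4 (0.12), TOP1 in the average of CL over CC (0.0833) and TOP2B in zdna3 over zdna2 over both arms (-0.0129). By edgeR the sign turned for TOP1 in CL over CC of zdna4 (-0.17). By DESeq2 the sign turned for TOP1 in CL over CC of zdna4 (-0.16). With a pseudocount of 2 CPM the call was lost for TOP2A in CL over CC of zdna4 (1.17). Over zdna1 to zdna3 only the sign turned for TOP2A in the average of CL over CC (-0.21), TOP2A in the permuted average (-0.21) and TOP2A over TOP1 in CL over CC (-0.11). Within the CL libraries alone the sign turned for TOP2A in zdna2 over zdna1 over both arms (-0.30), TOP1 in zdna3 over zdna1 over both arms (0.45) and TOP1 in zdna4 over zdna1 over both arms (0.20), and the test was newly passed by TOP2A in zdna4 over zdna1 over both arms (0.85), TOP2A in zdna4 over zdna2 over both arms (1.15) and TOP2A in zdna4 over zdna3 over both arms (1.25). Within the CC libraries alone the sign turned for TOP1 in zdna2 over zdna1 over both arms (-0.23), TOP2A in zdna3 over zdna1 over both arms (0.19), TOP2A in zdna4 over zdna1 over both arms (-0.0871), TOP2A in zdna4 over zdna2 over both arms (-0.46), TOP1 in zdna4 over zdna3 over both arms (0.0918) and TOP2A in zdna4 over zdna3 over both arms (-0.28). Without array weights the call was lost for TOP2A in zdna4 over zdna1 in CL (0.85). For TOP2A the test of equal differences between arms gave an adjusted p (limma) of 0.315 without a filter on low genes and 0.554 over zdna1 to zdna3 only. The causes of these shifts were not tested, but on the deposited scale the median of all genes moved by 0.72 in CL over CC of zdna3, 0.43 in CL over CC of zdna4, -1.48 in zdna3 over zdna1, -1.36 in zdna3 over zdna2 and 1.38 in zdna4 over zdna3.

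Leaving out each library in turn gave log2 changes of TOP1 in CL over CC of zdna2 from -0.17 to 0.37, TOP1 in CL over CC of zdna3 from -0.14 to 0.80, TOP2A in CL over CC of zdna3 from -0.77 to 0.0184, TOP2B in CL over CC of zdna3 from -1.23 to 0.49, TOP1 in CL over CC of zdna4 from -0.64 to 0.70, TOP2A in CL over CC of zdna4 from 1.01 to 1.34, TOP1 in the average of CL over CC from -0.23 to 0.11, TOP1 in zdna2 over zdna1 over both arms from -0.00509 to 0.36, TOP2A in zdna2 over zdna1 over both arms from -0.0346 to 0.11, TOP2B in zdna2 over zdna1 over both arms from -0.0265 to 0.27, TOP1 in zdna3 over zdna1 over both arms from -0.31 to 0.14, TOP2A in zdna3 over zdna1 over both arms from -0.30 to 0.0944, TOP2B in zdna3 over zdna1 over both arms from -0.14 to 0.72, TOP1 in zdna4 over zdna1 over both arms from -0.48 to 0.18, TOP2A in zdna4 over zdna1 over both arms from 0.31 to 0.47, TOP2A in zdna3 over zdna2 over both arms from -0.34 to 0.057, TOP2B in zdna3 over zdna2 over both arms from -0.26 to 0.60, TOP1 in zdna4 over zdna2 over both arms from -0.66 to 0.00866, TOP2A in zdna4 over zdna2 over both arms from 0.27 to 0.44, TOP1 in zdna4 over zdna3 over both arms from -0.39 to 0.28, TOP2A in zdna4 over zdna3 over both arms from 0.29 to 0.68, TOP2B in zdna4 over zdna3 over both arms from -0.15 to 0.71, TOP1 in zdna4 over zdna1 in CL from -0.0564 to 0.48, TOP2A in zdna4 over zdna1 in CL from 0.76 to 0.97, TOP1 in zdna4 over zdna3 in CL from -0.47 to 0.0647, TOP2B in zdna4 over zdna3 in CL from -0.57 to 1.15, TOP1 in the permuted average from -0.23 to 0.10, TOP2B in the permuted average from -0.62 to -0.19 and TOP2A over TOP2B in CL over CC from 0.24 to 0.88. The limma adjusted p of equal differences for TOP2A ran from 1.46e-05 to 0.0553. A group left with 1 library is assumed to vary like the others, and its array weight moved by construction, to 1.16 in place of 2.66 in zdna4 CL and to 1.13 in place of 0.303 in zdna4 CC.

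The numbers of genes called, with their range over the other alternatives and then over leaving out 1 library, were 35 (10 to 50, and 8 to 41) in CL over CC of zdna1, 8 (0 to 9, and 1 to 9) in CL over CC of zdna2, 4 (0 to 1049, and 3 to 330) in CL over CC of zdna3, 54 (13 to 212, and 8 to 827) in CL over CC of zdna4, 20 (5 to 1019, and 10 to 170) in the average of CL over CC, 40 (12 to 337, and 21 to 510) in the test of equal differences, 116 (9 to 210, and 53 to 119) in zdna2 over zdna1 over both arms, 208 (57 to 4421, and 139 to 659) in zdna3 over zdna1 over both arms, 32 (12 to 102, and 14 to 508) in zdna4 over zdna1 over both arms, 278 (61 to 4269, and 173 to 730) in zdna3 over zdna2 over both arms, 115 (9 to 491, and 35 to 831) in zdna4 over zdna2 over both arms, 220 (34 to 3832, and 118 to 680) in zdna4 over zdna3 over both arms, 102 (7 to 107, and 12 to 99) in zdna4 over zdna1 in CL, 491 (59 to 691, and 65 to 489) in zdna4 over zdna2 in CL and 311 (115 to 3693, and 64 to 474) in zdna4 over zdna3 in CL. In CL over CC of zdna4 the count was 12 and 8 without CL replicates 1 and 2, and 816 and 827 without CC replicates 1 and 2. Over the other alternatives the lowest counts came without array weights, without a filter, with 1 arm alone or with fewer numbers. The highest counts in comparisons with zdna3 and in the average came on the deposited scale.

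A replicate block changed no call of the 3 members: TOP2A in CL over CC of zdna4 stayed at 1.16 (limma adjusted p = 0.0335), with 47 genes called there, but the call of CKAP2L there was lost, with 0 of 27 G2 and mitosis genes called. Within CL the block left 8, 19 and 3 of that list called in zdna4 over zdna1, zdna2 and zdna3. Over 28 pairs of groups, the deviations of libraries with the same replicate number from their group means correlated by -0.0195 to 0.0431, so replicate numbers are not taken to pair libraries. With 1 read worth 3.22 to 25.4 CPM, depth limits TOP1 and TOP2B most in zdna3 CC and zdna4 CC, where a library holds 4 to 14 reads of either.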
